A study of Mus musculus with 26 samples.

Results

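Transcripts of 10 genes of the Notch pathway were measured in brown adipose tissue (BAT), out of 50686 genes in the count table: the receptors Notch1, Notch2, Notch3 and Notch4, the ligands Jag1, Dll1 and Dll4, and the target genes Hes1, Hey1 and Heyl. They were chosen by name, and all 10 passed the filter on low counts that kept 17286 genes for testing. Supraclavicular BAT was taken from male C57BL/6J mice of 12 to 16 weeks, all kept for 2 weeks at thermoneutrality, and the study asked how loss of the scaffold protein Afadin in fat changes the response of BAT to cold. At thermoneutrality there were 7 control littermates (labelled WT30) and 7 fat-specific Afadin knockout mice (KO30), and 5 control (WT5) and 7 knockout mice (KO5) were killed after 6 h at 5 °C. The labels give thermoneutrality as 30 °C and the study's methods as 29 °C. The knockout was made from Mllt4 flox/flox mice with Adiponectin-Cre, which deletes in adipocytes and leaves the vessels, nerves and stromal cells of the tissue with the gene. RNA was sequenced from whole tissue, so that fewer cells of a type and less RNA per cell cannot be told apart.

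Afdn, the gene that encodes Afadin, was not lower in the mice labelled KO at 30 °C. It ran from 151.5 to 213.7 CPM in WT30 and from 153.5 to 230.5 CPM in KO30 (log2 fold change -0.01, SE 0.08, adjusted p = 0.992), and with library size alone as the scaling the fold change was 0.15. At 5 °C the median was 73.7 CPM in WT5 and 57.9 CPM in KO5 (-0.33, SE 0.09, adjusted p = 0.116), and with DESeq2 Afdn passed the threshold there (-0.32, adjusted p = 0.0465). Counts cover the whole gene, also outside a deleted part, so that they do not check the deletion. At the protein level, the paper reports a smaller rise of Afadin with cold in BAT of knockout mice. It also shows Afadin protein at thermoneutrality, and RT-qPCR of Afdn under the name Mllt4, in both genotypes. For these its text states no direction of a genotype difference. The groups are therefore called by their labels. CPM are counts brought to a common library total, here after scaling the libraries by TMM (trimmed mean of M-values) factors, and a CPM value per kb is also divided by the length of the gene's merged exons. The total counts of the 26 libraries ran from 12705969 to 25732258, the TMM factors from 0.759 to 1.29 and the share of mitochondrial counts from 14.3% to 40.5%. Summed skeletal muscle markers ran from 0.772 to 6748 CPM between mice, with high and low mice in every group. Gene positions are given in mm10. All p-values for single genes are from edgeR's quasi-likelihood test and are adjusted over the 17286 genes, with 0.05 as the threshold.

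Notch signaling passes between cells that touch. A ligand of the Jagged or Delta-like family on the sending cell pulls on a Notch receptor, which is then cut by an ADAM protease and by gamma-secretase, and the freed intracellular domain enters the nucleus and joins the DNA-binding protein RBPJ and Mastermind-like coactivators to switch on target genes, among them the Hes and Hey repressors. In blood vessels, Dll4, Notch1 and Notch4 are known from endothelial cells, where Dll4 restrains sprouting, and Notch3 and Heyl from mural cells, the pericytes and smooth muscle cells around the vessel. In adipocytes, Notch activity is known to hold back the thermogenic program.

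Dll4 and Notch3 had the most negative cold responses of the 10 genes in KO mice, and the 250 bases before the start of each transcript are printed here to show what lies upstream of them. The sequences are from RefSeq (GRCm38.p6), 5′ to 3′ on the gene's strand, with the Hes binding motif called the N-box (CACNAG, either strand) in capitals.

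Notch3, minus strand, chr17:32166891-32167140: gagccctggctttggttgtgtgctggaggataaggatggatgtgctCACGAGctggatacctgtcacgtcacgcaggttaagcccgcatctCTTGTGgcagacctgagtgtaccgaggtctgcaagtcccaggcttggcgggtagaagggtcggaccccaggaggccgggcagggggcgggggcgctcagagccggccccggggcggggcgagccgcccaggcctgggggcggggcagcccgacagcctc

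Dll4, plus strand, chr2:119325534-119325783: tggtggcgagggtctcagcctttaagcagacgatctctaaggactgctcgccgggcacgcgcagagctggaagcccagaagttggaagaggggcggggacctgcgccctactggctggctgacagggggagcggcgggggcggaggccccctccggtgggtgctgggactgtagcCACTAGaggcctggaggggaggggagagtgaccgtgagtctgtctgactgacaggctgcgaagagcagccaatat

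Notch3 held 2 N-box matches, which begin 204 and 159 bases before the start, and Dll4 held 1, at 75 bases. Notch1 and Notch2 also held 1 match each, so that 4 of the 8 windows searched held the motif. Over 32851 mouse promoters of the same length, 36.7% held at least 1 match. Of the 10 genes, 7 had an entry in the RefSeq promoter table (8 windows, since Dll1 had 2 starts), and Hes1, Hey1 and Heyl had none. The letters TGGGAA, the core that RBPJ binds, stood in 0 of the 8 windows on either strand, against 21.6% of all promoters. CACGTG, an E-box bound by Hey proteins, stood in 0 of the 8 windows (6.02% of all promoters). TGACG, the core of the site for CREB, the transcription factor of the cAMP pathway, stood in the windows of Notch3 and Jag1 (17.8% of all promoters). All motifs were searched on both strands, and no match overlapped that of another motif. A match is a description of the letters and not a binding site.

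Per kb of exon, Hes1 and Jag1 were the most abundant of the 10 genes at 30 °C and Dll1 and Hey1 the least. In WT30 the median levels were 8.80 CPM per kb for Hes1, 8.41 for Jag1, 6.31 for Notch2, 5.28 for Dll4, 5.27 for Notch3, 4.26 for Notch1, 3.89 for Heyl, 2.67 for Notch4, 1.51 for Dll1 and 0.956 for Hey1. Of the neighbours in this order, only Notch2 and Dll4, and Notch4 and Dll1, had ranges over the 7 mice that did not overlap. The ranges of the other 7 pairs of neighbours overlapped, and the genes of a pair were not compared within each mouse. In WT5, Jag1 came first with 6.65 CPM per kb, and its range lay above that of Hes1, the next, with 4.76. Notch4 had rank 3 in both cold groups, with 4.54 CPM per kb in WT5 and 4.21 in KO5, whereas its rank was 8 in WT30 and 7 in KO30. Dll4 went from rank 4 in both groups at 30 °C to rank 7 in WT5 and 8 in KO5, and Notch3 from rank 5 to rank 6 in both genotypes. Neighbours in this order had overlapping ranges throughout KO5, and from Hes1 to Heyl in WT5. The cold ranks of Notch4, Dll4 and Notch3 are therefore not set apart from those of their neighbours.

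**Figure D1:**
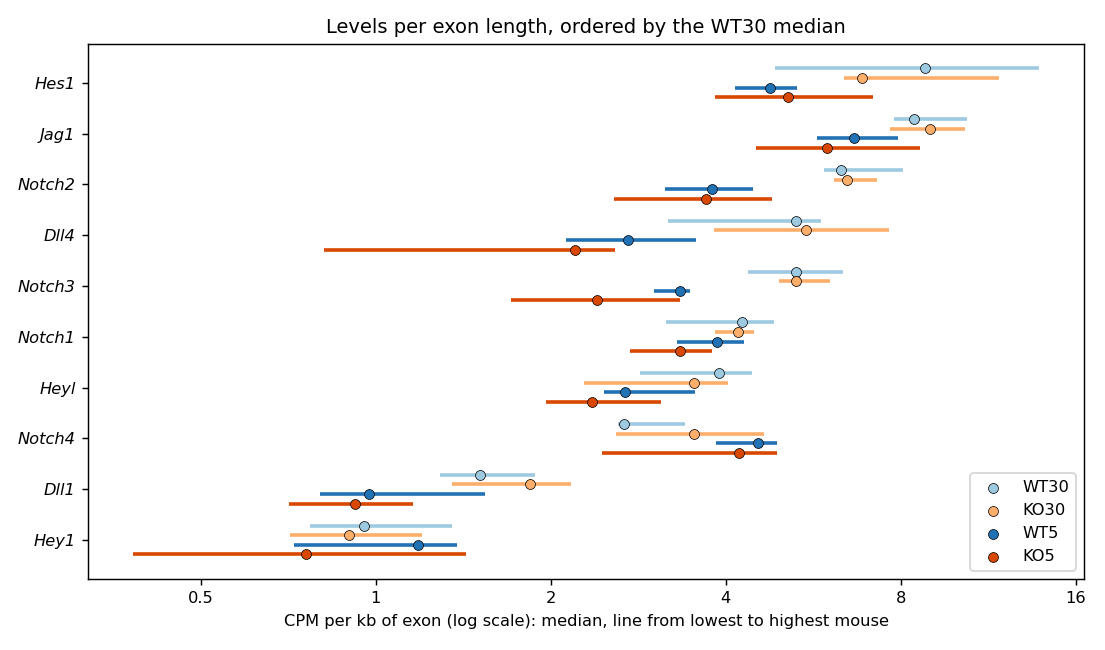
Level of each gene in CPM per kb of exon on a log axis, for the 4 groups, as the median (point) and the range from the lowest to the highest mouse (line). Notch4 moves to the right of Notch1 and Notch2 in the cold, and Dll4 and Notch3 move to the left.

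After 6 h at 5 °C most of the 10 genes were lower in both genotypes. In WT mice 7 of 10 fell (Notch2, Notch3, Jag1, Dll1, Dll4, Hes1 and Heyl), 1 rose (Notch4), and Notch1 and Hey1 did not pass the test. In KO mice 8 of 10 fell (Notch1, Notch2, Notch3, Jag1, Dll1, Dll4, Hes1 and Heyl), 0 rose, and Notch4 and Hey1 did not pass. Cold moved most genes of the tissue: 65.0% of all genes tested passed the threshold in WT (31.6% higher and 33.4% lower) and 68.6% in KO (33.7% higher and 34.9% lower). Scaling by library size alone shifted the all-gene median to -0.14 in WT and -0.34 in KO, and the calls in KO went from 5825 higher and 6035 lower to 3223 higher and 8384 lower. The calls named above for the 10 genes were kept under every scaling, filter and test tried, also when any single mouse was dropped. The median log2 fold change of the 10 genes was -0.49 in WT and -0.57 in KO, against -0.01 and -0.03 over all genes. Groups that did not overlap between temperatures were found for Notch2, Notch3 and Notch4 in WT (46.4% of all genes tested, 23.5% higher and 22.9% lower) and for Notch1, Notch2, Notch3, Dll1 and Dll4 in KO (40.4% of all genes tested, 21.1% higher and 19.3% lower).

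**Figure D2:**
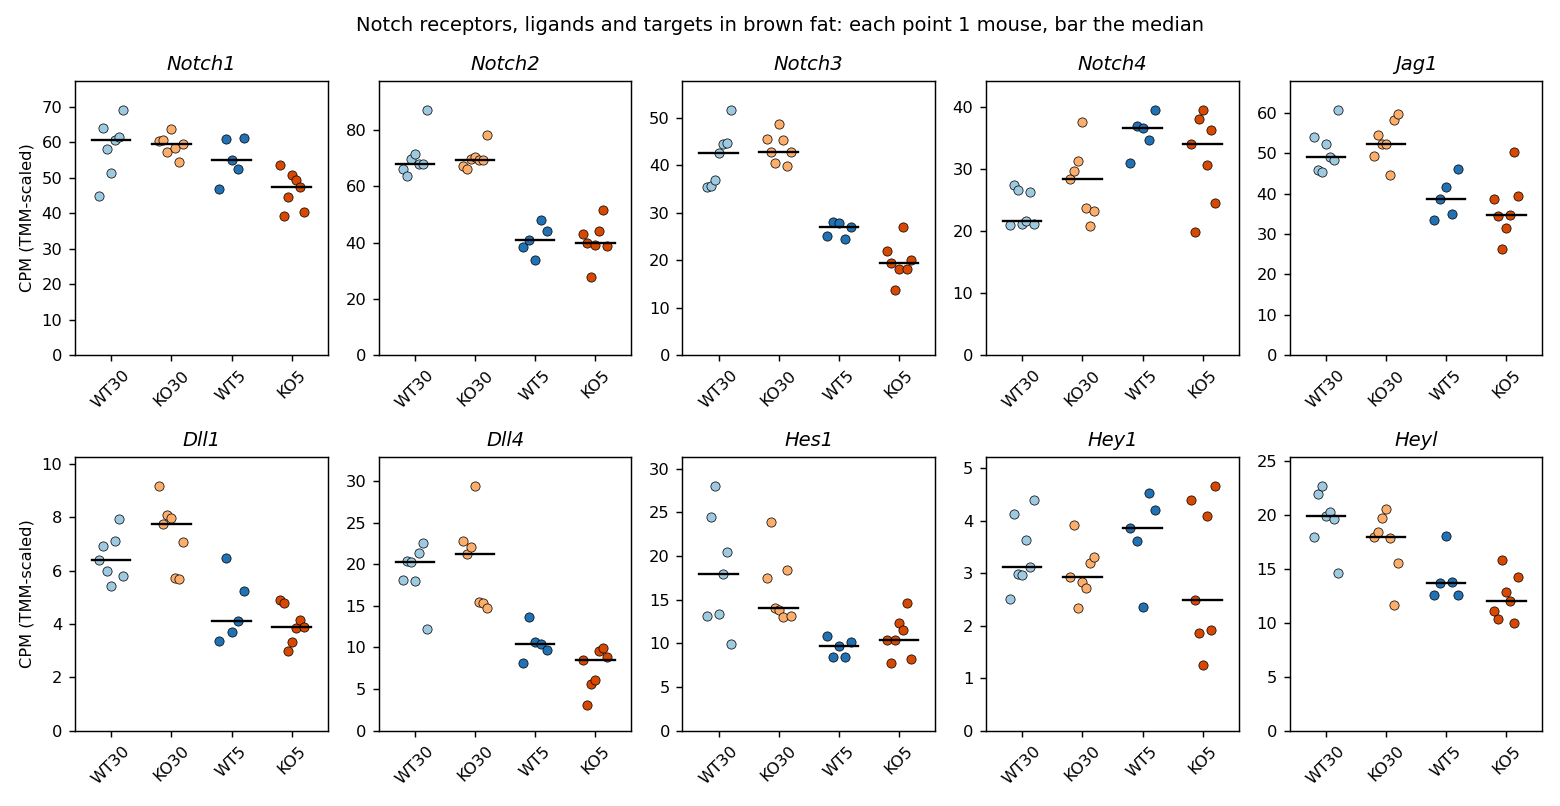
CPM of each of the 10 genes in every mouse (points) with the group median (bar), for the 4 groups on the horizontal axis. All cold mice lie below all thermoneutral mice for Notch2 and Notch3, and all WT5 mice lie above all WT30 mice for Notch4.

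Among the receptors, Notch2 (ENSMUSG00000027878.11, chr3:98013527-98150361, plus strand), which is widely expressed in tissues, had estimates of the cold response in WT and KO that lay within 0.01 on the log2 scale. In WT30 it ran from 63.7 to 87.1 CPM with a median of 68.0 CPM, and the 5 WT5 mice had 38.5, 40.8, 33.9, 48.1 and 44.0 CPM. KO30 mice ran from 66.2 to 78.3 CPM (median 69.6 CPM) and KO5 mice from 27.7 to 51.7 CPM (median 39.8 CPM). No cold mouse reached the lowest thermoneutral mouse of its genotype. With cold it changed by -0.78 on the log2 scale in WT (SE 0.11, adjusted p = 3.33e-07) and -0.79 in KO (SE 0.10, adjusted p = 4.33e-08).

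Notch3 (ENSMUSG00000038146.7, chr17:32120820-32166852, minus strand), the receptor of mural cells, fell in both genotypes, and its KO5 values were the lowest. It ran from 35.4 to 51.6 CPM in WT30 (median 42.6 CPM), and the 5 WT5 mice had 25.0, 28.1, 27.8, 24.4 and 26.9 CPM. In KO30 it ran from 39.9 to 48.8 CPM (median 42.8 CPM) and in KO5 from 13.8 to 27.0 CPM (median 19.4 CPM). The WT5 mice were close together, and 6 of the 7 KO5 mice lay below the WT5 median. The log2 fold change with cold was -0.66 in WT (SE 0.11, adjusted p = 1.04e-05) and -1.14 in KO (SE 0.10, adjusted p = 1.68e-10). At 30 °C KO and WT differed by 0.07 (95% interval -0.14 to 0.27), and at 5 °C by -0.41 (95% interval -0.64 to -0.19, unadjusted p = 0.000898, adjusted p = 0.116). The difference of the cold responses was -0.48 (SE 0.15, adjusted p = 0.105). These values did not pass the threshold, but other settings moved them across it. The adjusted p at 5 °C was 0.0415 with DESeq2 (-0.40) and 0.0302 without mouse KO5 26, the highest of its group (-0.50). The adjusted p for the difference of the cold responses was 0.0341 without mouse KO5 26 (-0.57) and 0.0449 without mouse WT30 7 (-0.55). Over the other settings tried on all mice or on fewer, the adjusted p at 5 °C ran up to 0.443.

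Notch4 (ENSMUSG00000015468.14, chr17:34564268-34588503, plus strand), a receptor found mainly in endothelial cells, was the receptor that rose. WT30 mice ran from 21.0 to 27.4 CPM (median 21.6 CPM), and the WT5 mice had 31.0, 37.0, 36.6, 34.7 and 39.5 CPM. KO30 mice ran from 20.9 to 37.6 CPM (median 28.4 CPM) and KO5 mice from 19.8 to 39.5 CPM (median 34.0 CPM). All 5 WT5 mice were above all 7 WT30 mice, whereas the KO groups overlapped. Notch4 rose by 0.60 on the log2 scale in WT (SE 0.14, adjusted p = 0.000757) and 0.19 in KO (SE 0.13, adjusted p = 0.198). The KO value was -0.14 with library size alone and -0.12 without the 10 mice that had over 1000 CPM of summed muscle markers, and it passed the threshold without mouse KO5 23 (0.27, adjusted p = 0.0447). The cold responses differed by -0.40 (SE 0.20, adjusted p = 0.311), so that a difference between the genotypes was not shown.

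Notch1 (ENSMUSG00000026923.15, chr2:26457903-26516663, minus strand), the receptor of sprouting and arterial endothelium among many other cells, was 54.9 CPM at the median in WT5, where the 5 mice had 46.9, 60.8, 54.9, 52.4 and 61.2 CPM. In WT30 it ran from 44.9 to 69.0 CPM (median 60.7 CPM), in KO30 from 54.5 to 63.7 CPM (median 59.6 CPM) and in KO5 from 39.1 to 53.7 CPM (median 47.3 CPM). The WT groups overlapped, and all KO5 mice were below all KO30 mice. The log2 fold change with cold was -0.08 in WT (SE 0.09, adjusted p = 0.441) and -0.35 in KO (SE 0.08, adjusted p = 0.0006). At 5 °C all 7 KO mice were below the WT5 median, with a log2 fold change of -0.25 (95% interval -0.44 to -0.06, unadjusted p = 0.0108, adjusted p = 0.234). The difference of the cold responses, -0.27 (SE 0.12), had an adjusted p of 0.285.

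Among the ligands, Dll4 (ENSMUSG00000027314.6, chr2:119325784-119335962, plus strand), the Delta-like ligand of arterial and tip endothelial cells, had the most negative log2 fold change of the ligands in either genotype. It ran from 12.2 to 22.5 CPM in WT30 (median 20.3 CPM), and the WT5 mice had 8.18, 13.7, 10.6, 10.4 and 9.74 CPM. In KO30 it ran from 14.7 to 29.4 CPM (median 21.2 CPM) and in KO5 from 3.14 to 9.95 CPM (median 8.46 CPM). In WT the groups overlapped through mouse WT30 7, at 12.2 CPM, and mouse WT5 17, at 13.7 CPM, and in KO they did not overlap. Cold changed Dll4 by -0.85 on the log2 scale in WT (SE 0.22, adjusted p = 0.00114) and -1.44 in KO (SE 0.20, adjusted p = 3.71e-07), a fall to 0.555 and 0.368 of the thermoneutral level. At 5 °C all 7 KO mice were below the WT5 median (-0.51, 95% interval -0.95 to -0.06, unadjusted p = 0.0269, adjusted p = 0.301), and the cold responses differed by -0.59 (SE 0.29, adjusted p = 0.306).

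Jag1 (ENSMUSG00000027276.7, chr2:137081456-137116644, minus strand), the Jagged ligand made by endothelial and smooth muscle cells, fell less. It ran from 45.3 to 60.6 CPM in WT30 (median 49.0 CPM), and the WT5 mice had 33.4, 38.7, 41.7, 34.9 and 46.1 CPM. KO30 mice ran from 44.6 to 59.8 CPM (median 52.3 CPM) and KO5 mice from 26.3 to 50.2 CPM (median 34.8 CPM). All 5 WT5 mice were below the WT30 median and all 7 KO5 mice below the KO30 median, but the highest cold mouse of each genotype was inside the thermoneutral range. Cold changed Jag1 by -0.38 on the log2 scale in WT (SE 0.11, adjusted p = 0.00492) and -0.54 in KO (SE 0.10, adjusted p = 5.34e-05).

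Dll1 (ENSMUSG00000014773.13, chr17:15367354-15376872, minus strand), a Delta-like ligand with low counts here (40 to 172 per mouse), had 3.38, 6.48, 3.69, 4.11 and 5.24 CPM in the WT5 mice against 5.44 to 7.94 CPM in WT30 (median 6.38 CPM). It ran from 5.68 to 9.17 CPM in KO30 (median 7.76 CPM) and from 2.99 to 4.89 CPM in KO5 (median 3.88 CPM). The WT groups overlapped through mouse WT5 17, which was also the highest WT5 mouse for Dll4. The log2 fold change was -0.51 in WT (SE 0.16, adjusted p = 0.00582) and -0.88 in KO (SE 0.14, adjusted p = 5.10e-06).

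Among the targets, Hes1 (ENSMUSG00000022528.7, chr16:30064384-30067796, plus strand), a repressor that Notch and several other pathways induce, was the gene with the most negative cold response in WT. WT30 mice were widely spread, from 9.91 to 28.0 CPM (median 17.9 CPM), whereas the WT5 mice had 10.8, 8.43, 9.70, 8.47 and 10.1 CPM. KO30 mice ran from 13.0 to 23.9 CPM (median 14.0 CPM) and KO5 mice from 7.80 to 14.6 CPM (median 10.4 CPM). The groups overlapped in both genotypes, in WT through mouse WT30 7 alone. Cold changed Hes1 by -0.93 on the log2 scale in WT (SE 0.21, adjusted p = 0.000376) and -0.60 in KO (SE 0.19, adjusted p = 0.00707). Hes1 was the member whose cold response was less negative in KO than in WT, and the difference of 0.34 (SE 0.28, adjusted p = 0.593) was within the error.

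Heyl (ENSMUSG00000032744.4, chr4:123233556-123249875, plus strand), a target gene of Notch3 in smooth muscle, had 12.6, 13.7, 18.1, 13.8 and 12.6 CPM in the WT5 mice and 14.6 to 22.7 CPM in WT30 (median 19.9 CPM). It ran from 11.7 to 20.6 CPM in KO30 (median 18.0 CPM) and from 10.0 to 15.8 CPM in KO5 (median 12.0 CPM). All cold mice were below the thermoneutral median of their genotype. The log2 fold change was -0.46 in WT (SE 0.13, adjusted p = 0.00363) and -0.50 in KO (SE 0.12, adjusted p = 0.000805). Hey1 (ENSMUSG00000040289.8, chr3:8663359-8667256, minus strand), a target gene in endothelium, had 21 to 96 counts per mouse and no call. The WT5 mice had 3.86, 3.62, 2.36, 4.52 and 4.21 CPM against 2.51 to 4.40 CPM in WT30 (0.12, 95% interval -0.38 to 0.63, adjusted p = 0.670). KO5 mice ran from 1.25 to 4.66 CPM, a wider range than the 2.33 to 3.91 CPM of KO30 (-0.04, 95% interval -0.51 to 0.42, adjusted p = 0.881).

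**Figure D3:**
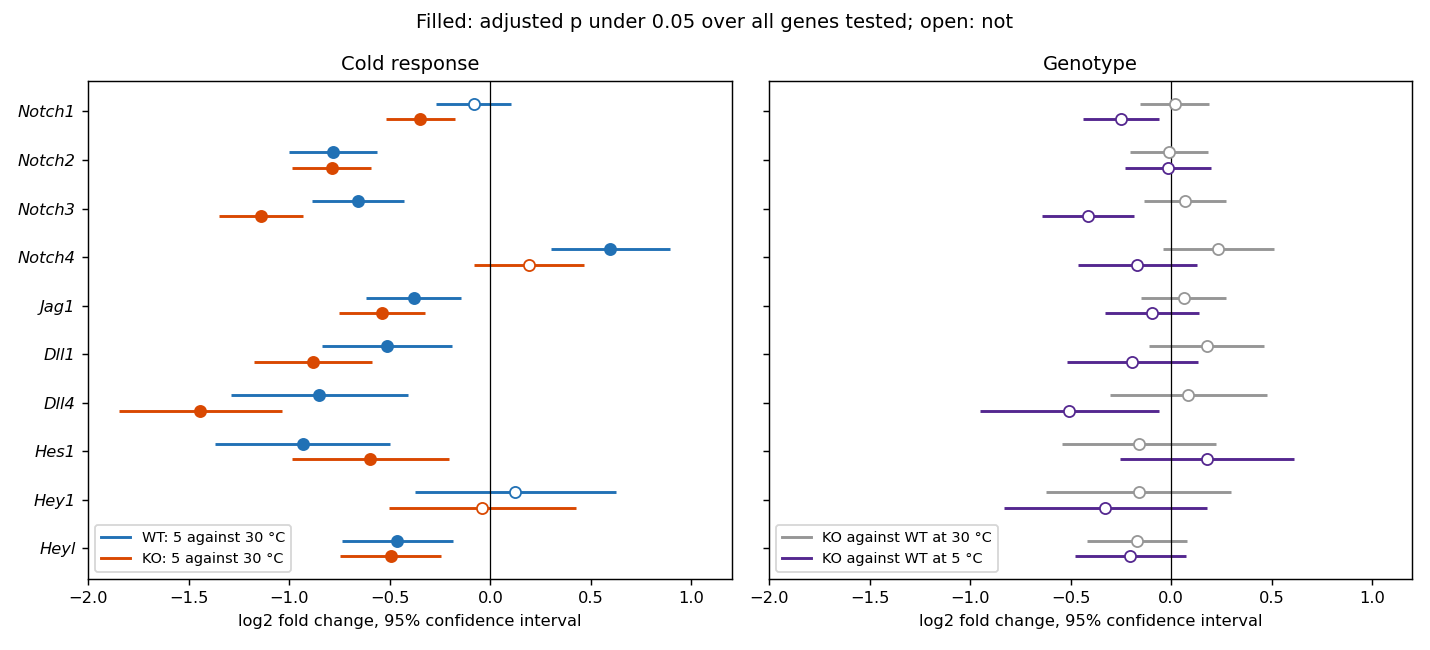
Log2 fold changes of the 10 genes with 95% confidence intervals, for cold within each genotype (left) and for KO against WT at each temperature (right). Filled points passed the threshold of 0.05 after adjustment over all genes, 8 in WT and 8 in KO on the left and 0 on the right.

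Between the genotypes, edgeR called 0 of the 10 genes at either temperature. None of the 10 had groups that did not overlap (0.249% of all genes tested at 30 °C and 1.11% at 5 °C). For the thermoneutral mice 0 of 10 also had an unadjusted p below 0.05, against 7.65% of all genes tested, and DESeq2 called 0. Of all genes tested, 0.081% passed the threshold in edgeR and 0.243% in DESeq2. The log2 fold changes there ran from -0.17 for Heyl to 0.23 for Notch4, with a median of 0.04. At 5 °C 3 of 10 (Notch1, Notch3 and Dll4) had an unadjusted p below 0.05, as had 13.4% of all genes tested, and DESeq2 called 1, Notch3. Of all genes tested, 0.139% passed the threshold in edgeR and 1.15% in DESeq2. The fold changes were negative for 9 of 10, all but Hes1, with a median of -0.20 against 0.02 over all genes. For Notch2 and Jag1 this sign was not kept, since without the 3 libraries with the most extreme TMM factors they were 0.08 and 0.02, and without the muscle-rich mice 0.11 and 0.06. The same 3 genes had an unadjusted p below 0.05 for the difference of the cold responses, which 0 of 10 passed after adjustment with either tool (1.16% of all genes tested passed in edgeR and 2.7% in DESeq2, and 16.2% had an unadjusted p below 0.05). That comparison shares the mice of the others, so that its values are no separate evidence. From these same libraries, the paper reports the Notch signaling pathway as lower in knockout than in control BAT in the cold. The signs at 5 °C are therefore no separate evidence for it.

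Sums of markers of other cells and of RNA quality differed between the genotypes at 5 °C. Summed nuclear-retained RNAs such as Malat1 and Neat1 ran from 10368 to 13599 CPM in KO5 and from 14874 to 16303 CPM in WT5, without overlap (log2 difference -0.37, exact two-sided permutation test, adjusted p = 0.0111 over 44 tests). Tested singly with edgeR, 1 of these 6 genes passed at 5 °C, Neat1 (-0.99, adjusted p = 0.0206), and Malat1 was -0.22 (adjusted p = 0.253). At 30 °C the sum was higher in KO (0.16, exact permutation test, adjusted p = 0.00926), and 0 of the 6 passed singly. Summed red blood cell markers were higher in KO5, at 481.8 to 1393 CPM against 390.2 to 642.2 CPM in WT5 (0.85, exact permutation test, adjusted p = 0.0473). The part of these in the lower Notch1, Notch3 and Dll4 values of KO5 was not tested. The other 9 lists did not differ between the genotypes at either temperature after adjustment (exact permutation tests), and no marker of any list was at 0 in all mice of a group.

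Markers of the vessel cells that carry Notch genes moved in both directions in the cold. Of 10 endothelial markers, 4 rose in WT (Pecam1, Cdh5, Kdr and Cldn5, from 0.49 to 1.28) and 6 fell (Tek, Tie1, Erg, Egfl7, Emcn and Vwf, from -0.76 to -0.47). In KO mice 4 rose and 5 fell. Their sum rose from 633.3 to 852.9 CPM in WT30 to 903.4 to 1031 CPM in WT5 (log2 difference 0.33, exact two-sided permutation test, adjusted p = 0.0111), whereas their mean log2 CPM differed by -0.02 (exact permutation test, p = 0.867). Among the markers that rose, the median in WT30 ran from 26.1 CPM for Cldn5 to 145.0 CPM for Kdr, and among those that fell from 20.9 CPM for Erg to 135.3 CPM for Egfl7. In KO the sum ran from 715.3 to 948.6 CPM at 30 °C and from 786.9 to 1045 CPM at 5 °C (0.17, exact permutation test, adjusted p = 0.111). Of 9 mural markers, 3 rose and 4 fell in WT, and 3 rose and 5 fell in KO. The mural sum fell by 0.33 in WT, from 649.6 to 893.5 CPM to 596.2 to 704.7 CPM (exact permutation test, adjusted p = 0.0253), and by 0.41 in KO, from 695.5 to 838.0 CPM to 542.9 to 652.9 CPM (adjusted p = 0.00926). The mean log2 CPM of the same markers differed by -0.05 in WT and -0.09 in KO without passing (exact permutation tests, p = 0.389 and 0.0985). Rgs5, which fell, made up most of the sum, with a median of 520.4 CPM in WT30 against 818.1 CPM for the sum. Of the 6 markers of arterial endothelium, 4 fell and 1 rose in WT, and 5 fell and 1 rose in KO. Those that fell ran from -1.40 for Bmx to -0.60 for Gja4 in WT, and from -0.97 for Efnb2 to -0.49 for Unc5b in KO. Sox17 was the 1 that rose, by 1.83 in WT and 2.24 in KO. A ratio of Dll4 to these arterial markers was not tested.

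Relative to the summed endothelial markers, Dll4 was lower in every cold mouse than in any thermoneutral mouse of its genotype. It was 1.93% to 2.64% of the sum in WT30 (median 2.48%) and 0.901%, 1.37%, 1.03%, 1.16% and 0.956% in the WT5 mice (log2 difference -1.18, exact two-sided permutation test, p = 0.00126, the smallest that 7 mice against 5 allow, adjusted p = 0.00589 over 28 ratios). In KO it went from 1.93% to 3.10% at 30 °C to 0.400% to 1.07% at 5 °C (-1.66, exact permutation test, p = 0.000583, again the smallest possible, adjusted p = 0.00408). Against the mean log2 of the same markers, a measure chosen after seeing the data, Dll4 was also lower, by -0.83 in WT and -1.36 in KO (exact permutation tests, adjusted p = 0.00884 and 0.00816). Notch4 rose against the sum in WT by 0.27 and against the mean by 0.62 (exact permutation tests, adjusted p = 0.0133 and 0.00884), with 3.41% to 3.88% of the sum in WT5 and 2.66% to 3.38% in WT30. In KO neither passed (0.02 and 0.32, exact permutation tests, adjusted p = 0.887 and 0.0979).

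For Jag1 and Notch1 the answer depended on how the markers were joined. Jag1 fell against the endothelial sum by 0.72 in both genotypes (exact permutation tests, adjusted p = 0.00589 in WT and 0.00408 in KO), but against the mean the differences of -0.37 and -0.42 did not pass (adjusted p = 0.0813 and 0.0508). Smooth muscle cells also make Jag1, and its ratio to the mural markers, whose sum fell in the cold, was not tested. Notch1 fell against the sum by 0.41 in WT and 0.52 in KO (exact permutation tests, adjusted p = 0.0133 and 0.00408), and against the mean by -0.22 in KO (adjusted p = 0.0210), with -0.06 in WT (adjusted p = 0.937). Notch3 fell against the mural sum in KO by 0.75 (exact permutation test, adjusted p = 0.00408), whereas the -0.31 in WT did not pass (adjusted p = 0.0629). Against the mural mean it fell in both, by -0.60 and -1.08 (exact permutation tests, adjusted p = 0.0141 and 0.00816). Heyl differed from the mural sum by -0.13 and -0.08 without passing (exact permutation tests, adjusted p = 0.247 and 0.568), and fell against the mural mean by -0.42 in WT and -0.40 in KO (exact permutation tests, adjusted p = 0.0265 and 0.0163). Hey1 did not pass against either measure. No ratio differed between the genotypes after adjustment by either measure.

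**Figure D4:**
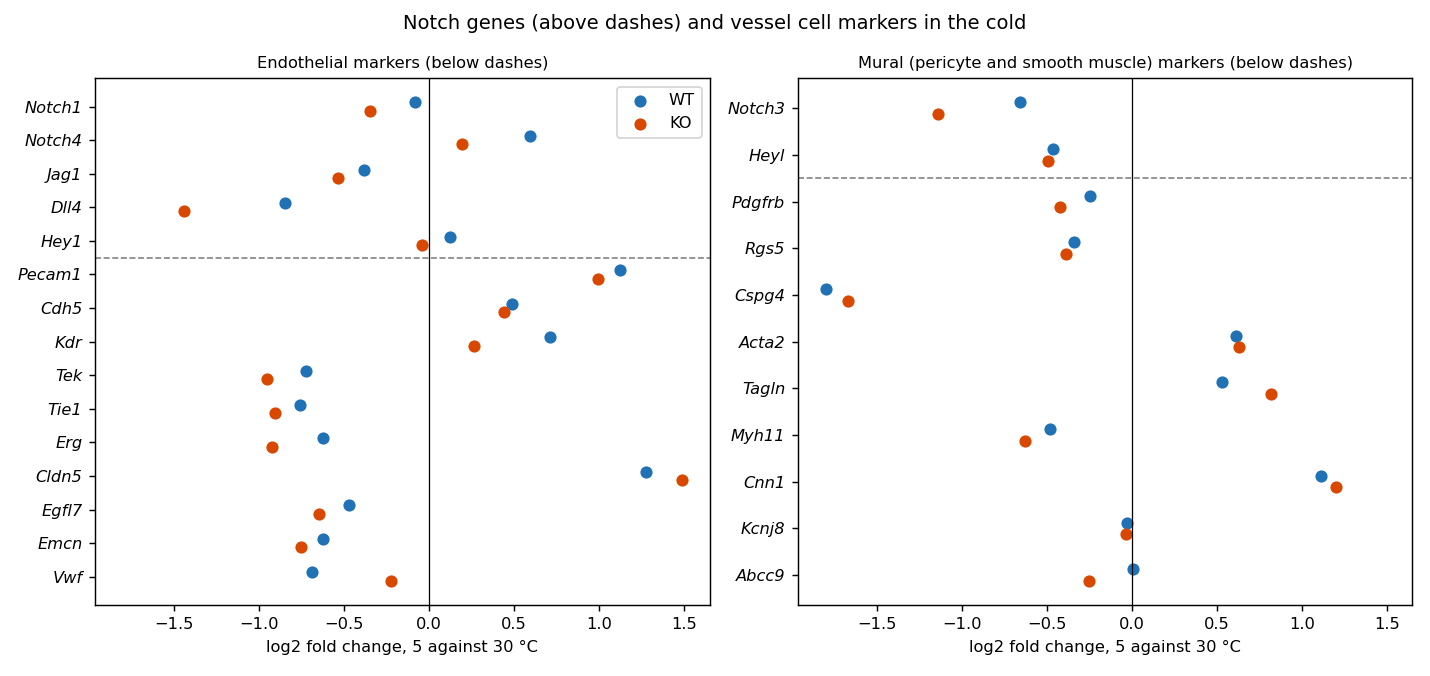
Log2 fold change with cold in WT and KO for the Notch genes known from endothelial (left) and mural cells (right), above the dashed line, and for the markers of those cells below it. The markers lie on both sides of 0, and Dll4 in KO lies further to the left than all 10 endothelial markers.

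Of the remaining lists, summed brown adipocyte markers rose in the cold by 1.70 in WT and 1.85 in KO (exact permutation tests, adjusted p = 0.00926 for both). Of these 8 genes 4 were higher and 2 lower in WT, and 4 higher and 3 lower in KO. In WT, Ucp1 and Dio2 rose by 4.02 and 7.00, whereas Adipoq and Lipe were lower, at -0.77 and -1.08. Summed lymphocyte markers fell in WT by 1.59 (exact permutation test, adjusted p = 0.00926) and Schwann cell markers in KO by 0.48 (adjusted p = 0.0111). Summed macrophage markers rose in KO by 0.30 (exact permutation test, adjusted p = 0.0473), with 4 of 7 genes higher and 2 lower. Red blood cell markers rose in KO by 1.18 as a sum (exact permutation test, adjusted p = 0.0110). Summed nuclear-retained RNAs rose in WT by 0.63 (exact permutation test, adjusted p = 0.00926) and differed by 0.10 in KO (adjusted p = 0.277). The sums of stromal progenitor, arterial endothelial and skeletal muscle markers did not pass in either genotype. The part of these lists in the cold responses of the 10 genes was not tested.

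Other genes of the pathway moved in both directions in the cold. Of 58 listed genes 53 were tested, and Dll3, Dlk2, Dtx1, Hes5 and Hes7 were below the filter. In WT 14 rose and 15 fell, and in KO 16 rose and 19 fell, 54.7% and 66.0% of the genes tested against 65.0% and 68.6% of all genes. The median log2 fold change was -0.02 in WT and 0.03 in KO. Of the 6 genes for receptor maturation, 5 encode enzymes that put sugars on the receptor and 1 is Furin, a protease that cuts it on its way to the surface. In both genotypes 4 of the 6 fell and 0 rose, and Furin, named after its values were seen, was 0.06 in WT and 0.15 in KO (adjusted p = 0.687 and 0.230). Those that fell include the Fringe enzymes Lfng and Mfng, with log2 fold changes of -2.26 (SE 0.25, adjusted p = 1.05e-08) and -2.01 (SE 0.23, adjusted p = 1.67e-08) in WT and -2.07 and -1.71 in KO. Lfng ran from 16.9 to 56.5 CPM in WT30 and from 4.89 to 9.10 CPM in WT5, without overlap. The remaining Fringe enzyme, Rfng, named after its values were seen, fell by 0.56 in WT and 0.72 in KO.

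Of the proteases that cut the receptor, Adam17 rose from 42.1 to 46.7 CPM in WT30 to 109.1 to 134.9 CPM in WT5 (2.82-fold, adjusted p = 6.05e-12) and 2.25-fold in KO (adjusted p = 1.51e-10). ADAM17 also releases many other membrane proteins. Adam10, named after its values were seen as the ADAM protease known for ligand-induced cleavage, was -0.12 in WT (adjusted p = 0.237) and -0.22 in KO (adjusted p = 0.0198). In all, 2 genes of this group of 9 rose and 3 fell in WT, and 3 rose and 4 fell in KO. The gamma-secretase subunits Aph1b and Aph1c, named after their values were seen, are near-identical copies, so that their counts are uncertain.

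Among the ubiquitin ligases and endocytic adaptors, which sort ligands and receptors at the membrane, 3 of 12 rose and 3 fell in WT and 4 rose and 4 fell in KO. The Deltex gene Dtx4 rose by 1.09 in WT (SE 0.13, adjusted p = 5.57e-08) and 1.34 in KO (SE 0.12, adjusted p = 3.45e-10). Rbpj itself, named after its values were seen, was -0.09 in WT and 0.10 in KO and passed in neither (adjusted p = 0.438 and 0.357). Of the 9 genes for RBPJ and coactivators, 2 rose and 2 fell in WT and 3 rose and 2 fell in KO. The histone acetyltransferase Crebbp rose by 0.81 in WT (SE 0.07, adjusted p = 3.63e-11) and by 0.46 in KO (SE 0.06, adjusted p = 2.18e-07).

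Corepressors were mixed, with 5 of 12 higher and 2 lower in WT and 5 higher and 3 lower in KO. The Groucho-family gene Tle2 went from 2.75 to 4.17 CPM in WT30 to 0.766 to 1.25 CPM in WT5 (-1.79, SE 0.18, adjusted p = 1.28e-09), and from 3.15 to 4.36 CPM in KO30 to 0.337 to 0.839 CPM in KO5 (-2.72, SE 0.17, adjusted p = 1.59e-13). Its counts in the cold were few, 11 to 24 per mouse in WT5 and 6 to 12 in KO5. Tle3, of the same family, rose by 0.56 in WT and by 0.81 in KO (adjusted p = 0.0156 and 0.000361). Of the genes grouped as other targets 3 passed the filter. Whether Notch acts on them in this tissue was not tested. Hes6, a relative of Hes1, fell from 6.64 to 8.49 CPM in WT30 to 1.18 to 2.34 CPM in WT5 (-2.20, SE 0.15, adjusted p = 1.29e-12) and by 1.82 in KO. Hey2 rose by 0.77 in WT (adjusted p = 0.00219) and was -0.03 in KO (adjusted p = 0.888), with a difference of -0.80 between them (adjusted p = 0.157). Nrarp, named after its values were seen, had no call with cold in either genotype. It ran from 1.19 to 2.16 CPM in WT30 and from 1.96 to 2.93 CPM in WT5. In KO it ran from 0.362 to 2.48 CPM at 30 °C and from 0.846 to 2.80 CPM at 5 °C. The canonical ligand Jag2, named after its values were seen, rose by 0.77 in WT (adjusted p = 1.38e-06) and 0.46 in KO (adjusted p = 0.000425), against the fall of Jag1, Dll1 and Dll4. The non-canonical ligand Dlk1, which marks preadipocytes, was 0.13 in WT (adjusted p = 0.783) and fell by 0.82 in KO (adjusted p = 0.0386).

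**Figure D5:**
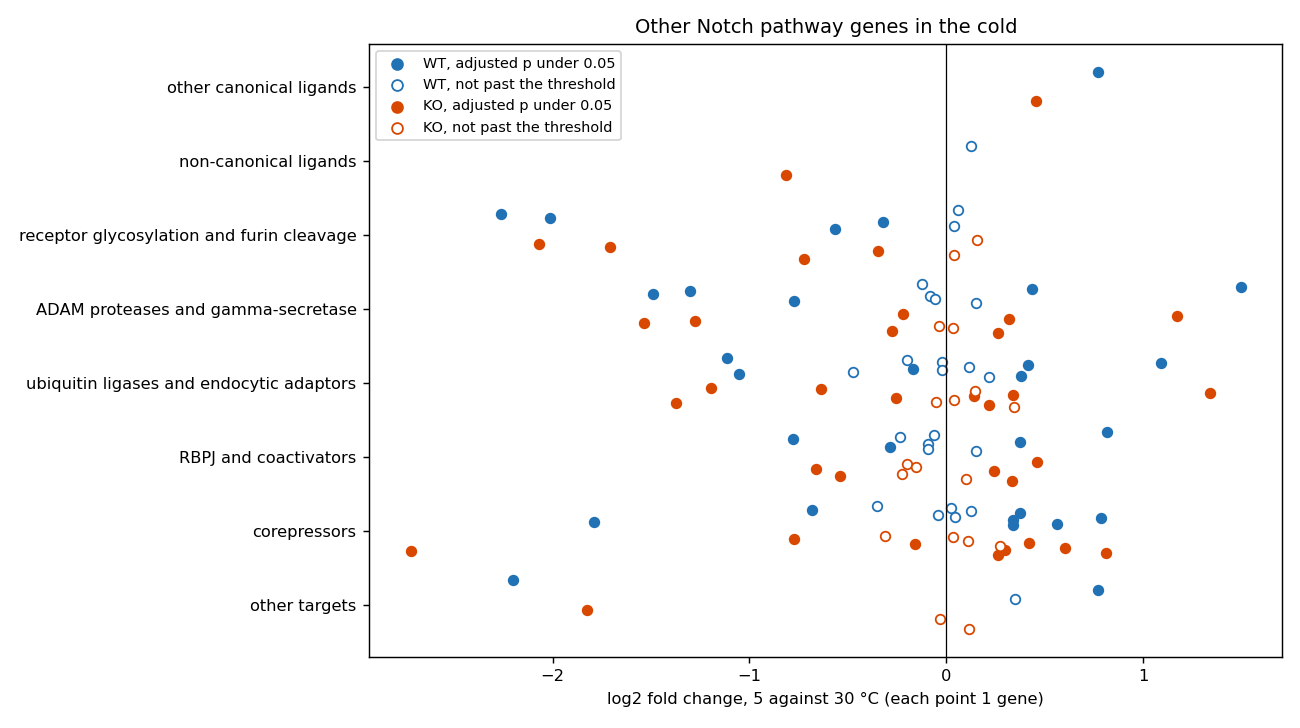
Log2 fold change with cold of the 53 tested pathway genes outside the 10, by role on the vertical axis, for WT and KO (points are genes, filled where the adjusted p was below 0.05). The genes lie on both sides of 0 in most roles, and those for receptor glycosylation that passed, 4 in each genotype, are all negative.

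Between the genotypes 0 of the 53 genes passed the threshold at either temperature or for the difference of the cold responses in edgeR, with 0, 7 and 6 at an unadjusted p below 0.05, against 7.65%, 13.4% and 16.2% of all genes tested. DESeq2 called 0, 1 and 2 of the 53, against 0.243%, 1.15% and 2.7% of all genes tested. At 30 °C the smallest unadjusted p were those of Hey2 (0.38, adjusted p = 0.664), Dlk1 (0.63, adjusted p = 0.689) and Mib2, a ubiquitin ligase (-0.17, adjusted p = 0.733). At 5 °C they were those of Tle2, which had few counts as given above (-0.87, SE 0.20, adjusted p = 0.0741), Crebbp (-0.26, SE 0.07, adjusted p = 0.106) and the Deltex gene Dtx3 (-0.30, SE 0.09, adjusted p = 0.152). These 3 genes also came first for the difference of the cold responses, with -0.93 (adjusted p = 0.0535), -0.35 (adjusted p = 0.051) and -0.43 (adjusted p = 0.074). Crebbp passed there with DESeq2 (adjusted p = 0.0231), upper-quartile factors (0.023), edgeR's revised method (0.0462), a filter of 10 counts (0.037) and without the 3 libraries with extreme TMM factors (0.00676), and Tle2 with upper-quartile factors (0.0455) and the revised method (0.0482). Dtx3 passed with DESeq2 (0.0415). Single mice also decided these calls. For the difference of the cold responses Crebbp passed without mouse WT30 7 (0.006), WT5 16 (0.0444), KO5 25 (0.0443) or KO5 26 (0.0379). Tle2 passed without mouse WT30 7 (0.039), KO5 22 (0.0231) or KO5 26 (0.0484), and Dtx3 without mouse KO5 22 (0.0439) or KO5 23 (0.0372). At 5 °C Tle2 passed without mouse KO5 22 (0.032), and Crebbp with DESeq2 (0.0332) and without the 3 libraries (0.0473). The sums of nuclear-retained RNAs and of red blood cell markers given above differed between the same groups.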

How the data were processed

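Total RNA without ribosomal RNA was sequenced from the BAT of 26 mice (100 bp reads, stranded kit), grouped by the labels. The authors aligned to mm10 with STAR 2.5.2b and deposited raw counts per gene from featureCounts 1.5.2 (GENCODE M13). The counting strand is not given in the sources used here. Antisense genes overlap exons of Notch1, Notch3, Dll1 and Dll4, and a gene on the same strand those of Notch2. Their own counts reached at most 1.63%, 10.3%, 8.14%, 13.5% and 2.90% of the member's in any mouse. Every deposited column was used. Symbols, coordinates and exon lengths were from GENCODE M21.

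Counts were fitted in R 4.3.3 with edgeR 4.0.16 (legacy quasi-likelihood, TMM factors, filterByExpr by group, 1 term for each of the 4 groups as the study's methods state), with Benjamini-Hochberg adjustment. DESeq2 1.42.0 was an alternative. Other scalings were library size alone and upper-quartile factors. The filter was dropped or set to 10 counts for each mouse. Also tried were the revised quasi-likelihood method, fits to only the compared groups, robust estimation of the dispersions and dropping each mouse. Those leaving out extreme TMM factors or muscle-rich mice, and the mean log2 of markers, were added after seeing the data. Marker sums (44 tests) and ratios (28 tests) were compared with exact two-sided permutation tests of log2 values. All 73 pairs of mice within groups differed by more than sampling noise (lowest chi-square per gene 4.83). The labels name separate mice. Steps were tested on simulated data.

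The members, gene lists and markers were chosen with earlier results of these data known. Pathway genes named are, per comparison, the 3 highest and 3 lowest log2 fold changes past the threshold, or the 3 smallest p where fewer passed. Per member, the 3 genes with the most similar deviations are named, except 1 that is not reported here. Others are said to be chosen after their values were seen. No protein sequences were used here.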

Additional observations from a re-analysis of the deposited data

Results flagged for a closer look

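Of 40 sets of values (10 genes in 4 groups), 4 held a mouse whose gap to the next exceeded Dixon's 95% critical value, where chance gives about 1 in 20 sets. Mouse WT30 7 was the highest of its group for Notch2, at 87.1 CPM with the next at 71.7 CPM, and the lowest for Dll4, at 12.2 CPM with the next at 18.0 CPM. Its TMM factor of 1.29 was the highest of all libraries. Mouse KO30 14 was the highest for Notch2, at 78.3 CPM with the next at 70.6 CPM. Mouse WT5 18 was the highest for Heyl, at 18.1 CPM with the next at 13.8 CPM. Without mouse WT30 7, Notch2 and Dll4 still passed the threshold in the WT cold response.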

How the results depend on the processing

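The 16 cold calls named for the 10 genes kept their direction and stayed past the threshold under all alternatives. No paired analysis was possible because the replicate numbers run from 1 to 28 without being shared between groups. Members called at 5 °C were 0, and 1 with DESeq2 (0 to 1 with a mouse left out). For the difference of the cold responses they were 0 (0 to 1 with a mouse left out). Pathway genes called at 5 °C were 0, and 1 with DESeq2 and 1 without the 3 extreme libraries (0 to 1 with a mouse left out). For the difference they were 0, and 2 with upper-quartile factors, 2 with DESeq2, 1 with at least 10 counts, 2 with the revised method and 1 without the 3 libraries (0 to 2 with a mouse left out). The sign turned for values near 0 that had no call. Notch2 at 30 °C was -0.01, and 0.12 with library size alone, 0.0189 with upper-quartile factors, 0.0038 with no filter, 0.0037 in the groups compared, 0.0494 without the 3 libraries and 0.0568 without muscle-rich mice (-0.0327 to 0.064 with a mouse left out). At 5 °C it was 0.084 and 0.108 under the last pair of settings (-0.0824 to 0.0585 with a mouse left out). Its difference of cold responses was 0.0121 with DESeq2, and 0.0346 and 0.0516 under that pair (-0.0731 to 0.0702 with a mouse left out). Under that pair Jag1 at 5 °C was 0.0188 and 0.0635, Hey1 with cold in KO 0.20 and 0.0754 (-0.19 to 0.0885 with a mouse left out), and its difference 0.0002 and 0.0009. Notch4 with cold in KO was -0.14 with library size alone and -0.12 without muscle-rich mice. With library size alone Hes1 at 30 °C was 0.0138 and Hey1 with cold in WT -0.01. Afdn at 30 °C was 0.15 with library size alone, 0.021 with upper-quartile factors, 0.0039 with no filter, 0.002 with at least 10 counts and 0.0052 in the groups compared (-0.0481 to 0.0564 with a mouse left out). With a mouse left out, Notch1 at 30 °C ran from -0.0376 to 0.0782, Dll4 at 30 °C from -0.0284 to 0.17 and the Heyl difference from -0.12 to 0.0731. The cause of these changes was not tested. Hey1 and Dll1, and the pathway gene Tle2 in the cold, rest on few counts, which widens their intervals.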

Other observations

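Within groups, some of the 10 genes varied together from mouse to mouse. Over the 26 mice, as deviations of log2 CPM from the group mean, Pearson's r was highest for Notch2 with Jag1 (r = 0.646, Spearman's rho 0.435), Notch4 with Dll4 (r = 0.610, rho 0.486) and Notch1 with Notch4 (r = 0.578, rho 0.544), and lowest for Notch2 with Heyl (r = -0.627, rho -0.566) among 45 pairs. These describe libraries that share depth and composition, and no p is given.

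Of all genes tested, those named for deviations most like those of a member were, for Notch4, Cd93 (r = 0.854), Epha2 (r = 0.851) and Plekhg1 (r = 0.851), and for Dll4, F2r (r = 0.779), Lats2 (r = 0.773) and Homer3 (r = 0.764). For Notch1 they were Med26 (r = 0.832), Nfat5 (r = 0.739) and Trio (r = 0.735), for Notch2 Adam19 (r = 0.817), Lonrf3 (r = 0.803) and Pknox1 (r = 0.784), and for Notch3 B230319C09Rik (r = 0.750) and Adgrl1 (r = 0.729). For Jag1 they were Polr1b (r = 0.820), Thada (r = 0.820) and Tbl2 (r = 0.815), and for Dll1 Fam111a (r = 0.795), Reep4 (r = 0.769) and Tspyl1 (r = 0.755). For Hes1 they were Smc5 (r = 0.791), Gm45292 (r = 0.776) and Csrnp1 (r = 0.756), for Hey1 Ehmt2 (r = 0.814), Irf3 (r = 0.811) and Klhl11 (r = 0.807), and for Heyl Gpihbp1 (r = 0.807), Bsdc1 (r = 0.806) and Foxo4 (r = 0.747). Each r is over 26 mice.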
